A study of Mus musculus with 4 samples.

Results

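CD300 receptors are a family of surface proteins of myeloid cells with a single immunoglobulin-like domain. The genes examined here were Cd300lf, Cd300a, Cd300lb, Cd300ld and Cd300c2, 5 of the 31053 genes counted in single-cell RNA sequencing of mouse bone marrow (BM) macrophages. They were taken by gene symbol, and the set was chosen because of how its levels differed between the groups, so that those levels are given as a description without a test. Each of 2 experiments gave 1 library of macrophages that had taken up cancer cells (efferocytic) and 1 of macrophages that had not (non-efferocytic), 4 libraries in all. The study asked what changes in a macrophage that has engulfed apoptotic cancer cells.

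BM cells of wild-type male C57BL/6J mice were grown into macrophages with 30 ng/mL of M-CSF, the growth factor of the macrophage lineage. The mice were 4 to 6 weeks old in the study's methods and 4 weeks old in the legend of its single-cell figure. RM1 mouse prostate cancer cells were killed by UV light, labeled with the fluorescent dye CFSE and co-cultured with the macrophages for 16 to 18 h. Efferocytic cells were sorted as F4/80+CFSE+, that is, as cells with a macrophage surface protein and with dye from RM1 material. Non-efferocytic cells were sorted as F4/80+ only, and the study describes them as BM macrophages alone. All animals were wild type. The study states a minimum of independent mice per group for its experiments with BM macrophages as a whole, and the number behind each of these libraries is not given in the sources used here. The replicates were the 2 experiments, and p-values measure only the spread between these libraries, which may be technical. The effects of co-culture, dye and uptake cannot be told apart in this design.

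Members of the family fall into receptors that inhibit and receptors that activate. The inhibitory receptors carry ITIMs, tyrosine motifs in the tail that recruit the phosphatases SHP-1 (Ptpn6), SHP-2 (Ptpn11) and SHIP (Inpp5d). Activating members have short tails and signal through the adaptors DAP12 (Tyrobp) or the Fc receptor gamma chain (Fcer1g), which recruit the kinase Syk. Several members bind lipids that apoptotic cells expose, such as phosphatidylserine and phosphatidylethanolamine, and Cd300lf also binds ceramide and sphingomyelin.

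The 5 genes lie in 1 gene cluster on chromosome 11 (positions from GENCODE vM21, build GRCm38, which is mm10). Cd300a spans 114890041 to 114904654 on the plus strand, and the other 4 are on the minus strand. Cd300lb spans 114922781 to 114934386, Cd300ld 114982274 to 114989922, Cd300c2 114996721 to 115001880, and Cd300lf 115116214 to 115133992. Cd300lf lies inside Rab37 (115091431 to 115162236), which is on the opposite strand, and 0 of the 5149 exonic bases of Cd300lf overlap an exon of Rab37. Rab37 itself was between 0.217 and 0.280 CPM in the 4 libraries.

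The 200 bases before the RefSeq start (GRCm38.p6) of 3 of the genes are shown, because each holds the core of a binding site for PU.1, the ETS factor of macrophages, and because their levels went different ways between the groups. Sequences read 5′ to 3′ along the strand of the gene, and capitals mark the motif GAGGAAG or its reverse complement.
Cd300lf, minus strand, chr11:115133993-115134192: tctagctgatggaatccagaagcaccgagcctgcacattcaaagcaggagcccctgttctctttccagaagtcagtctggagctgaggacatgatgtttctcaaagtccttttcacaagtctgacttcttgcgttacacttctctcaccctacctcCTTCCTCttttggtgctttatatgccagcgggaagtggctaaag
Cd300a, plus strand, chr11:114889841-114890040: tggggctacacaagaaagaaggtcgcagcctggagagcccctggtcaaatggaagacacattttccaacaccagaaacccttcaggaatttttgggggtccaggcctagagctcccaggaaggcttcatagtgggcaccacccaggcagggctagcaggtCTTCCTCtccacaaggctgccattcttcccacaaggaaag
Cd300ld, minus strand, chr11:114989887-114990086: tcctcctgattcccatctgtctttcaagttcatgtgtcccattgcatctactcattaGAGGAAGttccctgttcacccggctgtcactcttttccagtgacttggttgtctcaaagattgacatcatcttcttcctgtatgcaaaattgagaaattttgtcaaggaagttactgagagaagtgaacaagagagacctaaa

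In the window of 250 bases before to 50 bases after the start, searched on both strands, GAGGAAG was found in 13.6% of 32851 RefSeq promoters. Cd300lf held 2 copies, 1 of them at the start itself, Cd300a and Cd300ld held 1 each, and no copy was found for Cd300lb or Cd300c2. The C/EBP motif TTNCNNAA, present in 40.7% of promoters, was found 3 times for Cd300lf, 2 times for Cd300a and once for Cd300ld. The motif ACGTG of hypoxia-inducible factors, present in 19.6% of promoters, was found in the window of none of the 5 members. The same held for the STAT motif TTCNNNGAA (8.3% of promoters), for the AP-1 motif TGANTCA (7.81%) and for the E-box CACGTG (7.15%, a motif that contains ACGTG). The E-box CATGTG (14.2%) was found once, for Cd300ld. A match is a run of letters and not a site shown to be bound.

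In Experiment 1 there were 8280 non-efferocytic cells and 6695 efferocytic ones, and in Experiment 2 there were 13411 and 8408. They held 101216659 to 155224183 UMIs (captured molecules) per library. The study reports fewer cells for every library under like limits. Here the limits were applied to unfiltered barcodes, with no cell caller. The level of a gene is its CPM, its share of all UMIs in the cells of a library on the usual CPM scale. Efferocytic cells were deeper, with medians of 17171 and 17475.5 UMIs against 11146 and 9600. Summed markers of macrophages, all 13 detected in every library, were at 15607 to 28122 CPM and were lower in the efferocytic library of both experiments. The summed level of 11 neutrophil-lineage markers was 3089 and 3398 CPM in the non-efferocytic libraries and 977 and 738 CPM in the efferocytic libraries. Sums were also higher in the non-efferocytic libraries for 7 monocyte markers (227 and 249.3 against 80.0 and 62.8 CPM), 9 fibroblast markers (197 and 169 against 63.9 and 71.8 CPM) and 8 RM1 cancer cell markers (332 and 227 against 124 and 108 CPM, with 0 to 3 of the 8 at 0), and their part in the levels below was not tested. Igfbp4, 1 of the 8 RM1 markers, was among the leading genes of a macrophage-like cluster of Experiment 2. The RM1 sum therefore does not measure cancer cells alone. Unnamed clusters of few UMIs held 17.5% of the cells in the non-efferocytic library of Experiment 2, against 3.46% to 5.82% in the others. The 2 libraries of Experiment 2 shared 118 cell barcodes, where 16.6 were expected by chance, and other pairs of libraries shared 14 to 23. Without the shared barcodes the ratio of Cd300lf in Experiment 2 was 5.0, and with them 4.99.

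Cd300lf, an inhibitory receptor, was the member with the largest ratio between the groups, although in CPM the difference of Cd300c2 was larger. Its level was 4.62 CPM in non-efferocytic and 25.02 CPM in efferocytic cells of Experiment 1. In Experiment 2 the levels were 5.65 and 28.2 CPM. The means were 26.6 ± 2.26 CPM in the efferocytic and 5.14 ± 0.727 CPM in the non-efferocytic libraries (SD, n = 2 libraries each). The ratio of efferocytic to non-efferocytic CPM was 5.41 (95% counting interval 4.91 to 5.98) in Experiment 1 and 4.99 (4.62 to 5.39) in Experiment 2. Counting intervals cover counting error only and not the variation between cultures. Per cell, which does not divide by total UMIs, the ratios were 8.26 and 8.93.

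**Figure D1:**
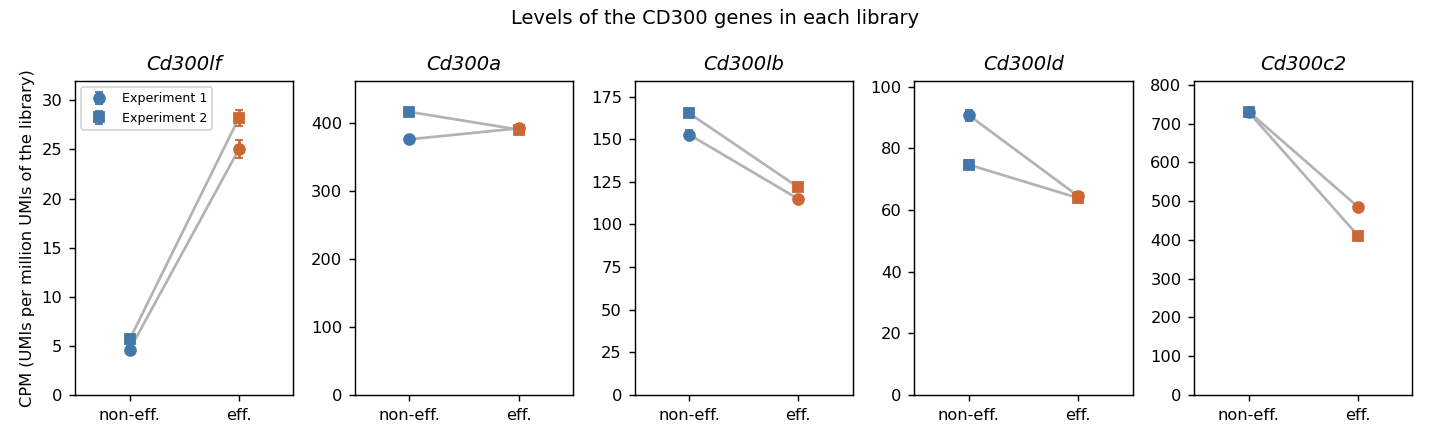
Level of each of the 5 genes (CPM, linear axis from 0) in the non-efferocytic and efferocytic library of each experiment, with circles for Experiment 1, squares for Experiment 2, a line joining the libraries of an experiment and bars for the 95% counting interval. Cd300lf goes from 4.62 and 5.65 to 25.02 and 28.2 CPM, Cd300a crosses, and the other 3 are lower in efferocytic cells as a share of the RNA.

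Shares of cells at equal depth are also given as a description, since the set was chosen on this contrast. Their intervals cover the sampling of cells within a library and not the variation between cultures. When each cell of at least 5000 UMIs was thinned to 5000 UMIs, Cd300lf was detected in 1.91% (exact 95% interval 1.60 to 2.25) and 2.21% (1.93 to 2.52) of non-efferocytic cells, and in 10.8% (10.0 to 11.6) and 12.8% (12.1 to 13.5) of efferocytic cells, in Experiments 1 and 2. Unthinned, the shares were 4.24% and 4.47% against 26.5% and 30.6%. Fibroblast-like cells are not a clean reference for absence of the gene. Their clusters also had 13 and 8 macrophage markers detected in Experiments 1 and 2. A Cd300lf UMI was found in 6.67% of 30 and 1.06% of 94 non-efferocytic fibroblast-like cells of Experiments 1 and 2. In efferocytic ones it was found in 23.1% of 13 and 4.76% of 42. Their median depths were 43881.5, 3459.5, 47069 and 25837.5 UMIs in that order. Those of macrophage-like cells were 11545, 11053, 17787 and 17919 UMIs. In CPM the fibroblast-like cells held 3.02 and 0.727, and 11.8 and 2.07, in the same order. The macrophage-like cells of the same libraries held 4.07 and 4.84, and 25.03 and 28.3. At 5000 UMIs, fibroblast-like cells had a Cd300lf UMI in 0% of 30 and 0% of 43 non-efferocytic and 7.69% of 13 and 4.35% of 23 efferocytic cells, beside 1.80% and 1.99%, and 10.7% and 12.8%, of macrophage-like cells. With so few fibroblast-like cells these shares are imprecise. Macrophage-like cells of the 2 groups lay mostly in different clusters, with cluster 0 of Experiment 1 holding 54.1% of non-efferocytic and 3.08% of efferocytic cells and cluster 1 holding 3.82% and 62.9%, and in Experiment 2 cluster 0 holding 45.9% and 0.868% and cluster 1 holding 0.984% and 43.6%. Of the cells with a Cd300lf UMI, 77.5% and 82.2% of the non-efferocytic and 60.3% and 60.5% of the efferocytic cells held a single one. When 10% of each library's UMIs were taken away in the proportions of barcodes under 100 UMIs, the ratios were 5.83 and 23.4. Those barcodes held 6.90 and 20.7 CPM of Cd300lf in the non-efferocytic and efferocytic libraries of Experiment 1, and 47.3 and 66.8 CPM in those of Experiment 2, which was more than the cells did in every library but the efferocytic one of Experiment 1.

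Cd300a, the other inhibitory member, did not separate the groups. It was at 376 and 392 CPM in non-efferocytic and efferocytic cells of Experiment 1, and at 416 and 390 CPM in Experiment 2. The 2 experiments thus went opposite ways, with ratios of 1.04 and 0.937, and the efferocytic levels lay between the non-efferocytic ones. Per cell it was 1.59-fold and 1.68-fold higher in efferocytic cells.

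The 3 activating members were lower in efferocytic cells in both experiments as a share of the RNA, whereas per cell none of them was lower. Cd300lb, which pairs with DAP12, was at 153 and 165 CPM in non-efferocytic cells and at 115 and 122 CPM in efferocytic cells, a ratio of 0.752 and 0.737. Per cell the ratios of Cd300lb were 1.15 and 1.32. Nothing is read from whether the groups of a member overlap in CPM. The share of all genes whose groups do not overlap was not counted. In sums over a library, a change in the mix of cells and a change within cells cannot be told apart. Levels within clusters are given below.

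Cd300ld, which pairs with the Fc receptor gamma chain, was at 90.7 and 74.7 CPM in the non-efferocytic libraries and at 64.5 and 63.9 CPM in the efferocytic ones. The ratios were 0.711 and 0.856 in CPM, and 1.09 and 1.53 per cell. The 2 efferocytic libraries were nearly alike, and the 2 non-efferocytic libraries differed from each other by more than the Experiment 2 pair did.

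Cd300c2, an activating receptor, was at 731 and 729 CPM in the non-efferocytic libraries and at 485 and 411 CPM in the efferocytic ones. The ratios were 0.664 and 0.564 in CPM and 1.01 and 1.01 per cell. At 5000 UMIs per cell it was detected in 94.0% and 93.1% of non-efferocytic and 85.7% and 80.7% of efferocytic cells. As for Cd300lb, nothing is read from whether its groups overlap in CPM.

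Under a rule of at least 2-fold in CPM in both experiments, 1 of the 5 members was higher in efferocytic cells and 0 were lower. By the same rule 0.909% of the 13869 tested genes were higher and 7.31% were lower. Because the members were chosen on this contrast, nothing is read from the count. The other 7 genes whose symbols begin with Cd300 were at or under 3.11 CPM in every library. Of these, Cd300lg was at 1.60 and 3.11 CPM in the non-efferocytic libraries and at 0.752 and 1.44 CPM in the efferocytic ones. Cd300ld3 was at 1.67 and 1.82 against 1.19 and 1.01 CPM. Cd300c, Cd300e, Cd300ld2 and Cd300ld4 were each at or under 0.613 CPM, and Cd300ld5 had no UMI in any library, where a floor of 3 counts is 0.0296 CPM in the shallowest one. Of the 90-base windows in the last 500 bases of the transcripts, where a 3′ kit reads, 45 of 1523 for Cd300lf were also found in Cd300ld, and 0 for the other 4 members were found in another gene.

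The genes nearest in pattern over the 4 libraries were named by the smallest distance between centered log2 CPM profiles among the 7094 genes whose mean reached 10 CPM. For Cd300lf they were Cdkn1c (distance 0.37), a cell cycle inhibitor, Npy (0.67), a neuropeptide, and Plau (0.68), the urokinase. Cdkn1c was at 11.8 and 11.7 CPM in the non-efferocytic libraries and at 45.3 and 65.1 CPM in the efferocytic ones. For the other members the nearest genes lay at distances of 0.014 to 0.043. They were Mrps33, Dnase1l1 and Bod1 for Cd300a, Fam208a, Nsmce4a and Arap1 for Cd300lb, Prdm2, Nrf1 and Anxa6 for Cd300ld, and St3gal4, Chchd5 and Arhgap17 for Cd300c2. With 4 libraries, many genes share a pattern.

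Clusters of cells, made in each experiment without the Cd300 genes, showed where in the culture Cd300lf was high. In Experiment 1 it was highest in cluster 7, led by Arg1, the arginase of alternatively activated macrophages, and by Ankrd37 and Egln3, which are induced in low oxygen. That cluster held 376 efferocytic cells and 1 non-efferocytic cell, and its efferocytic cells had 91.7 CPM of Cd300lf. Cluster 5 of Experiment 1, led by Trib3, Phgdh and Asns, genes of the amino acid stress response, was at 20.9 CPM in non-efferocytic and 61.2 CPM in efferocytic cells. Cluster 8 of Experiment 2, led by Prss46 and holding Phgdh, Trib3 and Ankrd37 among its 10 leading genes, was at 34.5 and 90.9 CPM.

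Cells named neutrophil lineage-like, from markers such as S100a8, S100a9 and Ngp, were also high in Cd300lf. They held 47.7 and 49.8 CPM in the non-efferocytic libraries (75 and 121 cells) and 59.8 and 67.6 CPM in the efferocytic libraries (24 and 23 cells). They made up 0.906% and 0.902% of non-efferocytic cells and 0.358% and 0.274% of efferocytic cells. Their part in the level of Cd300lf over a library was not tested. The other 4 members were lower in these cells than in the macrophage-like cells of the same library, with Cd300c2 at 209, 107, 240 and 71.7 CPM in the non-efferocytic and efferocytic libraries of Experiment 1 and then of Experiment 2. Lymphoid-like cells, found in Experiment 2 alone, had no Cd300lf UMI in 71 and 63 cells, which have few UMIs (medians of 1499 and 1440). The unnamed cluster 5 of Experiment 2, with medians of 1556 and 1273.5 UMIs, held 19.6 CPM in 726 non-efferocytic cells and 84.2 CPM (95% counting interval 40.4 to 155) in 82 efferocytic cells.

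**Figure D2:**
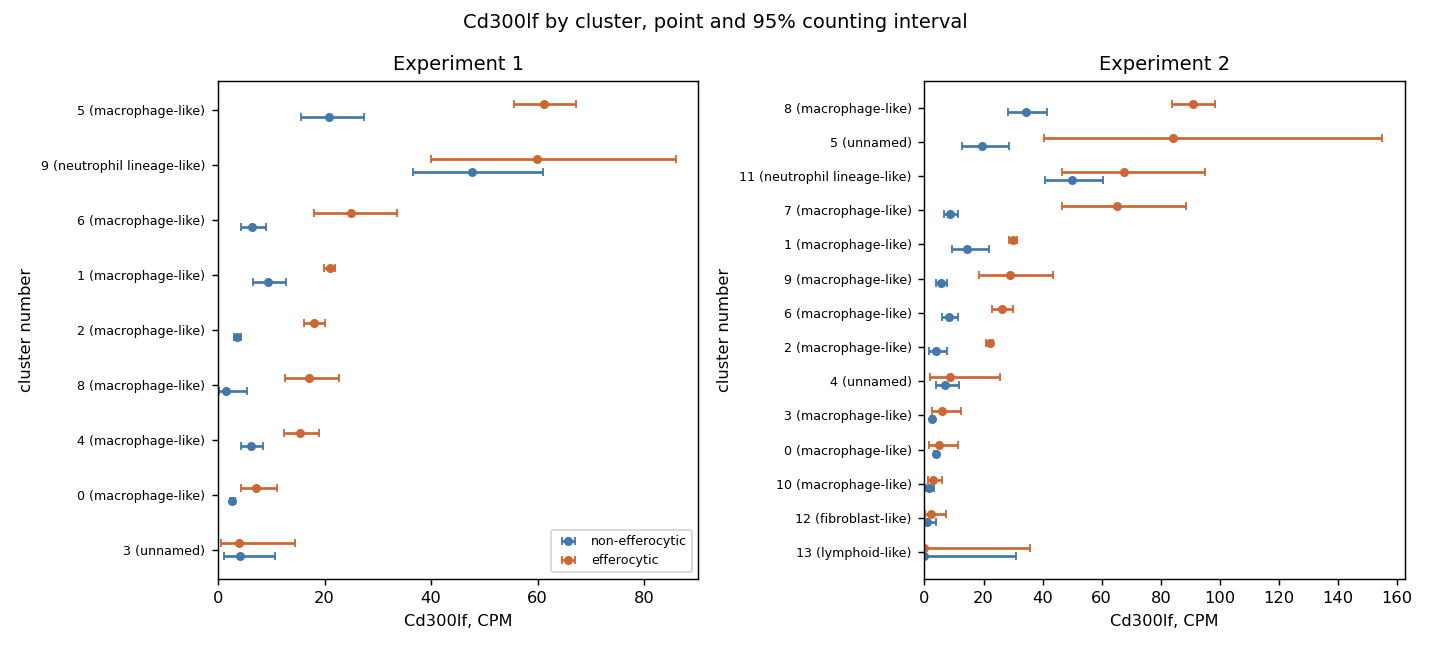
Level of Cd300lf (CPM, horizontal axis) in each cluster with at least 20 cells of both groups, by experiment, with non-efferocytic cells in blue, efferocytic cells in orange and bars for the 95% counting interval. Clusters are ordered by the efferocytic level, and cluster 7 of Experiment 1, with 1 non-efferocytic cell, is not drawn.

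In the 7 macrophage-like clusters of each experiment with at least 50 cells of both groups, Cd300lf was higher in the efferocytic cells in 7 of 7 and 7 of 7, with ratios of 2.25 to 11.6 in Experiment 1 and 1.28 to 5.58 in Experiment 2. The clusters of an experiment share its 2 libraries and the contrast on which the set was chosen, so they are not replicates. Cd300lf in barcodes under 100 UMIs was also higher in both efferocytic libraries, and its part in these ratios was not tested. Some of the ratios rest on few counts. The ratio of 11.6 is that of cluster 8 in Experiment 1, with 2 Cd300lf UMIs in 79 non-efferocytic cells (1.48 CPM, 95% counting interval 0.179 to 5.35), and the ratio of 1.28 that of cluster 0 in Experiment 2, with 5 UMIs in 73 efferocytic cells (4.92 CPM, 1.60 to 11.5) beside 3.85 CPM in non-efferocytic cells. In CPM, Cd300c2 was lower in all 7 and all 7, with ratios of 0.613 to 0.908 and 0.488 to 0.914, and Cd300lb likewise, with 0.652 to 0.882 and 0.635 to 0.833. In UMIs per cell Cd300c2 was higher in 6 of 7 clusters of Experiment 1 and in 1 of 7 of Experiment 2 (ratios of 0.832 to 1.18 and 0.648 to 1.19), and Cd300lb in 4 and 3 (0.832 to 1.24 and 0.654 to 1.1). Cd300ld was lower in CPM in 6 of 7 and 5 of 7 clusters, with ratios of 0.628 to 2.52 and 0.644 to 1.38, and higher per cell in 4 and 5. Cd300a was higher in CPM in 6 of 7 and 6 of 7, with ratios of 0.888 to 1.40 and 0.952 to 1.22, although in Experiment 2 its level over the whole library was lower in efferocytic cells. Per cell it was higher in 7 of 7 and 6 of 7. Cd300lf was higher per cell in 7 of 7 and 7 of 7, with ratios of 3.30 to 14.2 and 1.66 to 7.85. Cluster 7 of Experiment 1 and clusters 0 and 9 of Experiment 2 each had 1 marker of another cell type and none of macrophages among their leading genes, and clusters are therefore compared by number.

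The genes that went with Cd300lf were sought among cells of the same library, a measure that the choice of the members did not use. Cells thinned to 5000 UMIs were split into those with a Cd300lf UMI (137, 662, 221 and 1011 cells, in the non-efferocytic and efferocytic libraries of Experiment 1 and then of Experiment 2) and those without. The sums of both kinds of cells were compared with edgeR's quasi-likelihood test with the library as a block, over 11674 genes. The 4 libraries come from only 2 experiments, so the 4 pairs in this and the later splits are not 4 independent replicates. In all, 266 genes passed an adjusted p of 0.05 (2.28%), 212 of them higher (1.82%) and 54 lower (0.463%) in cells with Cd300lf. Without the library as a block 56 were higher and 0 lower. Without the non-efferocytic library of Experiment 1, 152 genes passed. A Cd300lf UMI does not by itself mark a cell that expresses the gene. Barcodes under 100 UMIs held more Cd300lf in CPM than the cells in every library but the efferocytic one of Experiment 1. Before thinning, 77.5% and 82.2% of the non-efferocytic cells with Cd300lf held a single UMI. The part of free RNA in this split was not tested.

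At a mean of 10 CPM or more, the limit for the genes ranked by size in these splits, the largest increases were neutrophil genes. Ltf, lactoferrin, was at 358 CPM in cells with Cd300lf and at 41.9 CPM in cells without it in the non-efferocytic library of Experiment 1, at 513 and 23.9 CPM in that of Experiment 2, and at 58.9 and 13.2 CPM and at 39.97 and 1.94 CPM in the efferocytic libraries. Its log2 difference was 3.50 ± 0.26 (SE, 4 pairs, edgeR adjusted p = 1.97e-06). Retnlg (4.49), Cd177 (3.52), Wfdc21 (3.31) and Lcn2 (3.29) were the others, all higher in 4 of 4 libraries. Of the 11 neutrophil-lineage markers tested, 9 were higher in cells with Cd300lf and 0 lower. Of 7 monocyte markers 3 were higher and 0 lower, and of 13 macrophage markers 0 were higher and 3 lower.

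In the other direction the largest decreases were Hpgd (log2 difference -1.32 ± 0.11, adjusted p = 4.76e-06), which degrades prostaglandins, Acta2 (-1.25 ± 0.23, adjusted p = 0.00601), a smooth muscle actin, Tmem176b (-0.74), Tmem176a (-0.72) and Fxyd2 (-0.60). Hpgd was at 59.9 CPM with and 189 CPM without Cd300lf in the non-efferocytic library of Experiment 1, and at 53.4 and 120 CPM in that of Experiment 2. In the efferocytic libraries it was at 20.2 and 42.0 CPM and at 4.35 and 12.8 CPM. It was lower in 4 of 4 libraries.

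With the neutrophil lineage-like, fibroblast-like, lymphoid-like and unnamed clusters left out, 353 genes passed, of which 171 also passed over all cells, with the same direction in 171 of 171. These are 64.3% of the 266 genes and 48.4% of the 353 genes. Of the 5 neutrophil genes above, 4 were then too low to test and Lcn2 did not pass. By the same rule the largest increases were Arg1 (2.18 ± 0.17), Ankrd37 (1.61 ± 0.16), Prss46 (1.22 ± 0.13), Ero1l (1.15 ± 0.08), an oxidase of protein folding, and Slpi (1.1 ± 0.12), a protease inhibitor. Arg1 was at 83.9 CPM with and 15.4 CPM without Cd300lf in the efferocytic library of Experiment 1 and at 5.59 and 2.13 CPM in that of Experiment 2, while in both non-efferocytic libraries it was at most 2.04 CPM with or without Cd300lf. Ero1l was at 69.3 and 18.9 CPM and at 29.6 and 22.0 CPM in the non-efferocytic libraries of Experiments 1 and 2, and at 96.1 and 39.8 CPM and 89.2 and 42.3 CPM in the efferocytic libraries. Hpgd (-1.26 ± 0.10), Tmem176b (-0.59 ± 0.15) and Fxyd2 (-0.54 ± 0.09) passed here too, whereas Acta2 (-0.04) and Tmem176a (-0.47) did not.

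**Figure D3:**
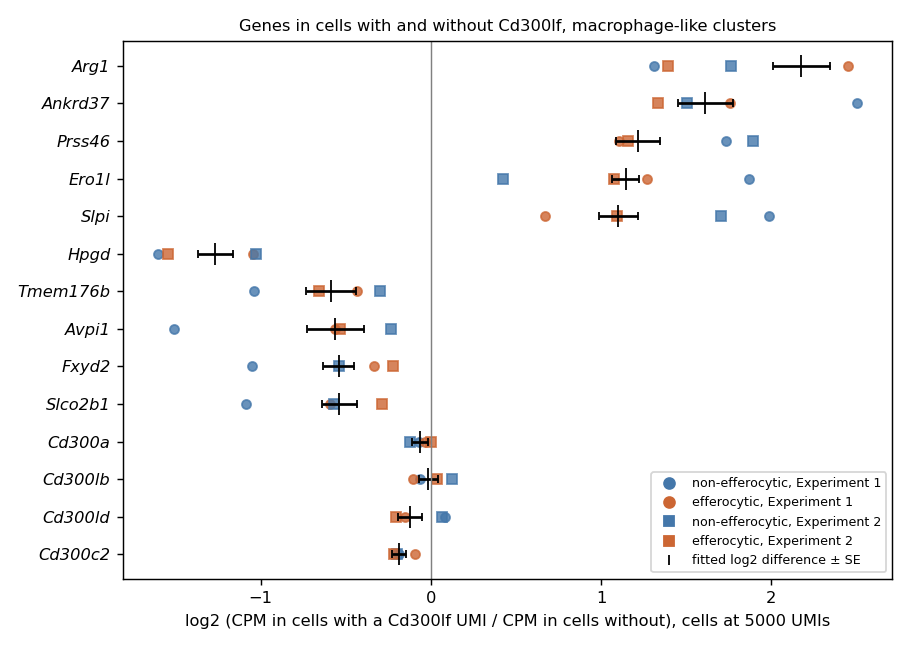
Log2 ratio of CPM in cells with to cells without a Cd300lf UMI, at 5000 UMIs per cell, in macrophage-like clusters, for the 5 largest increases, the 5 largest decreases and the other 4 members. Each point is 1 library (circles for Experiment 1, squares for Experiment 2, blue for non-efferocytic, orange for efferocytic), and the black bar is the fitted difference ± SE. Cd300c2 lies below 0 in all 4 libraries.

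Among the other members, Cd300c2 was lower in cells with Cd300lf. It was at 603 CPM with and 709 CPM without Cd300lf in the non-efferocytic library of Experiment 1, at 440 and 472 CPM in the efferocytic one, at 576 and 710 CPM in the non-efferocytic library of Experiment 2 and at 342 and 398 CPM in the efferocytic one. It was lower in 4 of 4 libraries, with a log2 difference of -0.22 ± 0.05 (edgeR adjusted p = 0.0191), and of -0.19 ± 0.04, which also passed, with the other clusters left out. Cd300a (-0.09 ± 0.05, adjusted p = 0.505), Cd300lb (-0.04 ± 0.06, adjusted p = 0.875) and Cd300ld (-0.15 ± 0.07, adjusted p = 0.395) did not pass. At 5000 UMIs, 14, 47, 24 and 73 cells of the 4 libraries, in the order above, had all 5 members, and 0.738% to 1.37% of cells had none.

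Cells with Cd300ld differed from cells without it in 382 of 11683 genes (3.27%), 158 higher (1.35%) and 224 lower (1.92%). The balance depended on the cells and genes used, with 131 higher and 37 lower when the neutrophil lineage-like, fibroblast-like, lymphoid-like and unnamed clusters were left out, 112 higher and 51 lower at a mean of 10 CPM or more, and 0 higher and 26 lower without the library as a block. Over all cells 9 of 10 neutrophil-lineage and 6 of 7 fibroblast markers were lower in cells with Cd300ld.

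A UMI of Cd300ld or Cd300a, like one of Cd300lf, does not by itself mark a cell that expresses the gene. Shares in fibroblast-like cells are given for this, although their clusters also had macrophage markers detected. At 5000 UMIs, Cd300ld was detected in 20% of 30 and 9.30% of 43 fibroblast-like non-efferocytic cells of Experiments 1 and 2, beside 32.2% and 28.6% of macrophage-like cells, and in 0% of 13 and 8.70% of 23 fibroblast-like efferocytic cells, beside 25.8% and 25.4%. Cd300a was detected in 23.3% and 25.6% of the same fibroblast-like non-efferocytic cells, beside 83.7% and 86.4%, and in 23.1% and 13.04% of the efferocytic ones, beside 84.0% and 84.9%.

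The largest increases with Cd300ld were Mmp12, macrophage elastase, and Itgax, the integrin CD11c, followed by Mamdc2 (0.63), Cd72 (0.58), an inhibitory receptor, and Fabp7 (0.51). Mmp12 was at 415 and 189 CPM with and without Cd300ld in the non-efferocytic library of Experiment 1 and at 519 and 254 CPM in that of Experiment 2, and at 600.3 and 404 CPM and 517 and 393 CPM in the efferocytic libraries. Its log2 difference was 0.79 ± 0.07 (adjusted p = 1.73e-08). All 5 also passed with the other clusters left out, where 168 genes passed in all.

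The largest decreases were neutrophil genes, Wfdc21 (-3.31), S100a9 (-3.27), Camp (-3.22), S100a8 (-3.13) and Ngp (-3.07), and with those clusters left out Wfdc21 was too low to test and the other 4 did not pass. There the largest decreases were Itgb7 (-0.39 ± 0.08), Clec10a (-0.38 ± 0.05), a galactose-binding lectin, Plxdc2 (-0.37), Ifrd1 (-0.34) and Tmem176b (-0.29). None of the other members passed in the Cd300ld split, with log2 differences of -0.22 to 0.10. Without the non-efferocytic library of Experiment 1 or 2, 248 and 188 genes passed over all cells.

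Cells with Cd300a differed from cells without it in 1590 of 11823 genes (13.4%), 609 higher (5.15%) and 981 lower (8.30%). At a mean of 10 CPM or more 439 were higher and 386 lower, and without the library as a block 14 and 386. The largest decreases were collagens and other matrix genes of fibroblasts, Mgp (-4.04), Col1a1 (-3.87), Col1a2 (-3.76), Bgn (-3.75) and Col3a1 (-3.74). With the fibroblast-like and other clusters left out, none of these passed, and of the 633 genes that did (286 higher and 347 lower), 553 were among the 1590, with the same direction in 552. The largest decreases were then genes of cycling cells, Top2a (-0.80 ± 0.09), Hist1h2ap (-0.71), Ccnd1 (-0.63), Cks1b (-0.62) and Birc5 (-0.61 ± 0.06). Over all cells, all 8 markers of cycling cells tested were lower in cells with Cd300a, as were 10 of 11 neutrophil-lineage, 5 of 7 monocyte and 8 of 8 fibroblast markers, whereas 8 of 13 macrophage markers were higher and 0 lower, with a median of 0.13.

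The largest increases with Cd300a were Cd74, the invariant chain of MHC class II (0.60 ± 0.06, adjusted p = 2.73e-07), Clec10a (0.59 ± 0.07), Ccdc152 (0.58), Fam26f (0.52) and Lrrc14b (0.52), and all 5 passed with those clusters left out. Cd74 was at 343 and 183 CPM with and without Cd300a in the non-efferocytic library of Experiment 1 and at 552 and 425 CPM in that of Experiment 2, and at 28.6 and 17.7 CPM and 63.6 and 47.0 CPM in the efferocytic libraries. Cd300c2 was higher in cells with Cd300a over all cells (0.11 ± 0.03, adjusted p = 0.0069) but did not pass with the other clusters left out (0.04). Without the non-efferocytic library of Experiment 1 or 2, 1041 and 819 genes passed over all cells.

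The lists of partners and relatives, which were chosen with earlier results of these data known, were also counted in these splits. The share called over all genes was 2.28% in the Cd300lf split, 3.27% in the Cd300ld split and 13.4% in the Cd300a split. In cells with Cd300lf, edgeR called 0 of 20 signaling partners (4 at an unadjusted p under 0.05, as were 1477 of all 11674 genes), and 4 of 18 receptors that signal through DAP12 or the Fc receptor gamma chain were higher. These were Trem3 (3.27), Cd200r4 (0.60), Sirpb1c (0.51) and Pira2 (0.50), named after their values were seen, as are the other genes named from the lists in these splits. All but Trem3, which was too low to test, also passed with the other clusters left out. Cd200r4 was at 35.0 and 14.6 CPM with and without Cd300lf in the non-efferocytic library of Experiment 1 and at 27.2 and 14.3 CPM in that of Experiment 2, and at 37.8 and 26.5 CPM and 45.9 and 33.1 CPM in the efferocytic libraries.

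Of the other lists, 1 of 17 inhibitory receptors (Cd33, 0.48), 1 of 15 phosphatidylserine receptors and bridging molecules (Lrp1, 0.25, where the list's median was -0.10) and 3 of 28 genes of ceramide and sphingomyelin metabolism were higher with Cd300lf, and 0 were lower. The 3 were Sgms2 (1.38) and Samd8 (0.41), both of the sphingomyelin synthase family, and Degs1 (0.22), which makes the double bond of ceramide. Cd33, Lrp1, Sgms2 and Samd8 passed with the other clusters left out, and Degs1 (0.17) did not. In cells with Cd300ld, 7 of 17 other receptors listed as inhibitory were higher and 0 lower, where 1.35% of all genes were higher. Among the 7 were Slamf8 (0.59), Cd72, Pilra (0.51), Lilr4b and Cd200r1. An ITIM is not certain for Slamf8, Lilr4b and mouse Cd33, and Cd200r1 signals through another tyrosine motif. With the other clusters left out, 6 of the 7 passed and Cd200r1 (0.10) did not.

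Of the other lists, the Cd300ld split had 2 of 15 phosphatidylserine receptors and bridging molecules higher (Mfge8 and Cd36) and, of 17 receptors in the DAP12 and Fc receptor gamma chain list, 1 higher (Fcgr4) and 2 lower (Clec10a and Trem3). Trem3 (-2.70), which was lower along with the neutrophil-lineage markers, was too low to test with the other clusters left out, and the other 4 passed there. The split had 0 of 20 signaling partners and 0 of 27 genes of ceramide metabolism called by edgeR (6 and 2 at an unadjusted p under 0.05). In cells with Cd300a, 7 of 20 signaling partners were higher and 0 lower, with differences of 0.07 for Fcer1g to 0.27 for Il4ra beside the median of 0.13 for macrophage markers. Their part in the list's count was not tested. Of the 7, Il4ra, Pik3r1 and Syk also passed with the other clusters left out. The other lists were mixed in the Cd300a split, with 4 phosphatidylserine receptors and bridging molecules higher and 3 lower of 15, 2 inhibitory receptors higher and 1 lower of 17, 4 receptors of the DAP12 and Fc receptor gamma chain list higher and 3 lower of 18, and 2 genes of ceramide metabolism higher and 2 lower of 28. With the other clusters left out, all 7 phosphatidylserine receptors and bridging molecules passed, but Pirb (0.08), Fcgr3 (0.05) and Clec5a (-0.01) did not, Trem1 and Trem3 were too low to test, and of the 4 ceramide genes Sphk1 (-1.88) passed and Asah1, Sgpl1 and Sgms2 did not.

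The partners and relatives of the family were tested between the groups with edgeR's quasi-likelihood test, with TMM scaling and the experiment as a block. The lists were chosen with earlier results of these data known, so their counts and p-values are a description and not independent support. Of 13869 genes, 5397 passed (38.9%), 2761 higher (19.9%) and 2636 lower (19.0%) in efferocytic cells, and the median log2 fold change was -0.02. That median moved to -0.12 under scaling by library totals and to 0.60 under UMIs per cell, and the calls moved with it, to 1847 higher and 3700 lower under library totals and to 6921 higher and 586 lower under UMIs per cell. Every direction below is that under TMM scaling. In each list the genes named as changing most are those whose mean reached 1 CPM.

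Of the 20 signaling partners, 3 rose and 4 fell. The share called was 35%, beside 38.9% of all genes. Tyrobp, Fcer1g, Ptpn6, Ptpn11, Inpp5d, Syk and Il4ra are named whatever their result. Tyrobp was at 3993 ± 31.0 and 3725 ± 497 CPM (SD, n = 2) in non-efferocytic and efferocytic cells (log2 fold change 0.00 ± 0.16, adjusted p = 0.998), Fcer1g at 3563 ± 64.3 and 3817 ± 318 CPM (0.20 ± 0.15, adjusted p = 0.323). Ptpn6 (0.07 ± 0.08), Inpp5d (-0.07 ± 0.09) and Syk (-0.14 ± 0.09) did not pass either. Ptpn11 passed with a small increase (0.26 ± 0.08, adjusted p = 0.0345).

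Lat2, an adaptor of activating receptors in myeloid cells, rose most in this list, from 192 and 220 CPM to 364 and 423 CPM (1.04 ± 0.10, adjusted p = 0.000245). Plcg2 passed (0.35 ± 0.10, adjusted p = 0.0278), at 33.6 and 33.7 CPM in Experiment 1 and 31.8 and 44.1 CPM in Experiment 2. The Src-family kinase Fgr (-0.68 ± 0.17) and Il4ra, the interleukin-4 receptor chain that Cd300lf can bind (-0.56 ± 0.08, adjusted p = 0.00171), fell most. Il4ra was at 50.4 and 46.9 CPM in the non-efferocytic libraries and at 28.9 and 32.6 CPM in the efferocytic ones. Under library totals 1 rose and 6 fell, and under UMIs per cell 13 rose and 0 fell.

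Of 15 other phosphatidylserine receptors and bridging molecules that could be tested, of 20 listed, 6 rose and 4 fell, with a median log2 fold change of 0.21. Cd36, a scavenger receptor, was at 476 and 556 CPM in the non-efferocytic libraries and at 1440 and 1669 CPM in the efferocytic ones (1.70 ± 0.12, adjusted p = 9.4e-05), and Calr, calreticulin, at 207 and 184 against 517 and 519 CPM (1.51 ± 0.10, adjusted p = 7.23e-05). Stab1 (-0.84 ± 0.10) and Axl (-0.62 ± 0.11) fell most. Under library totals 6 rose and 5 fell, and under UMIs per cell 9 rose and 0 fell.

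Of 19 other receptors listed as inhibitory, 18 could be tested. Of these, 7 rose and 7 fell, with a median of -0.12. The share called was 77.8%, beside 38.9% of all genes. Not all of the listed receptors carry a classical ITIM. Cd200r1 signals through another tyrosine motif, and for Lilr4b, Slamf8 and mouse Cd33 an ITIM is not certain. Cd33, Lilr4b and Cd200r1 are among the 7 that rose, and Slamf8 among the 7 that fell. Cd33 (0.97 ± 0.20, adjusted p = 0.00718), a sialic acid receptor, was at 22.5 and 22.1 CPM in the non-efferocytic libraries and at 27.8 and 58.8 CPM in the efferocytic ones, and Lair1 (0.61 ± 0.08), a collagen receptor, also rose. Siglece (-1.60 ± 0.19), a low gene at a mean of 1.85 ± 0.434 and 0.555 ± 0.0292 CPM, and Fcgr2b (-1.31 ± 0.12, adjusted p = 0.000253), the inhibitory Fc receptor, fell most. Fcgr2b was at 230 and 197 CPM in the non-efferocytic libraries and at 99.3 and 64.2 CPM in the efferocytic ones. Pecam1, at a mean of 0.258 CPM, also passed (-1.38). Under library totals 5 rose and 8 fell, under UMIs per cell 9 rose and 3 fell, and without the block 2 rose and 6 fell. Of all 13869 genes, 1285 rose and 1073 fell without the block.

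Of 24 other receptors listed that signal through DAP12 or the Fc receptor gamma chain, 19 could be tested. Of these, 4 rose and 8 fell, with a median of -0.37. The share called was 63.2%, beside 38.9% of all genes. Cd200r4 (1.17 ± 0.09, adjusted p = 0.000103) and Pira2 (0.85 ± 0.11) rose most. Cd200r4 was at 14.4 and 14.5 CPM in the non-efferocytic libraries and at 27.4 and 33.4 CPM in the efferocytic ones. Pilrb1 (-2.02 ± 0.15) and Trem3 (-1.88 ± 0.16) fell most among genes of at least 1 CPM, from means of 3.87 ± 0.187 and 4.84 ± 0.155 CPM. Trem1 (-2.31) passed at a mean of 0.184 CPM and Siglech at 0.151 CPM. Clec10a (-1.73), one of the 8 that fell, was listed here although its pairing with either adaptor is not certain. Trem3 was higher by 3.27 in cells with Cd300lf along with the neutrophil-lineage markers, whose sum was also lower in efferocytic cells (977 and 738 against 3089 and 3398 CPM), and their part in its fall was not tested. In macrophage-like clusters alone 4 of 17 rose and 6 fell, where 2379 of all 13157 genes rose and 2296 fell. Under library totals 13 fell and 4 rose, and under UMIs per cell 6 fell and 6 rose.

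Of 28 genes of ceramide and sphingomyelin metabolism, lipids that Cd300lf binds, 9 rose and 3 fell, with a median of 0.14. Called genes made up 42.9% of this list, near the 38.9% of all genes, and nothing is read from the count. The ceramide synthase Cers2 was among those that rose (0.64 ± 0.09, adjusted p = 0.00153), at 139 and 133 CPM in the non-efferocytic libraries and at 185 and 208 CPM in the efferocytic ones. Smpd3, a sphingomyelinase (-2.20 ± 0.15, adjusted p = 7.15e-05), and Cers4 (-0.46 ± 0.12) fell most, and Smpd3 was at 5.26 and 4.89 against 1.13 and 0.934 CPM. Under library totals 7 rose and 4 fell, and under UMIs per cell 21 rose and 1 fell.

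The number of calls changed with each library left out. Such a fit drops the block and has 1 residual degree of freedom, and the lone library of its group is assumed to vary like the other group. With the non-efferocytic library of Experiment 1 left out, edgeR called 2 of all genes and 0 of every list, and with that of Experiment 2 left out 0 of all genes and 0 of every list. At an unadjusted p under 0.05 these fits held 2999 and 3494 genes, with 3 and 5 signaling partners, 8 and 7 phosphatidylserine receptors, 10 and 9 inhibitory receptors, 9 and 11 activating receptors and 9 and 9 genes of ceramide metabolism. Without the efferocytic library of Experiment 1, 2933 genes and 4, 8, 9, 13 and 7 members of the lists in the same order passed, and without that of Experiment 2, 1204 genes and 2, 4, 6, 6 and 4.

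**Figure D4:**
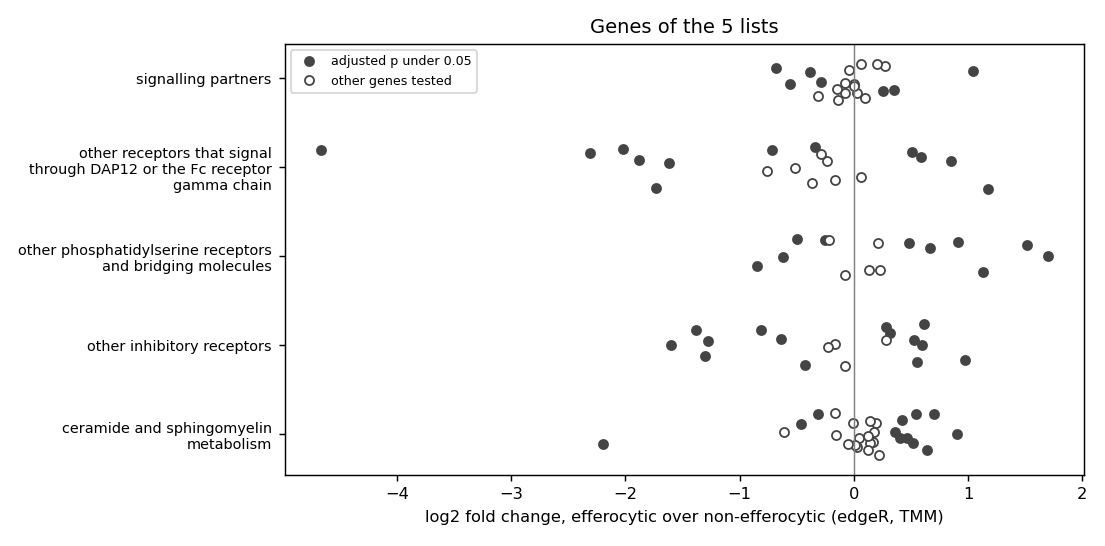
Log2 fold change of efferocytic over non-efferocytic cells (edgeR, TMM scaling, horizontal axis) for every tested gene of the 5 lists, with filled points at an adjusted p under 0.05 and open points for the rest. Vertical position within a list is arbitrary, and the lists of inhibitory and of activating receptors hold genes that rose and genes that fell.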

How the data were processed

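The authors made a count table of UMIs per gene and barcode for each library with Cell Ranger (3.0.0 in the submitters' processing notes, and per the file headers 3.0.0 for Experiment 1 and 3.1.0 for Experiment 2) on mm10, and deposited these counts unfiltered. Cells with at least 1000 UMIs, at least 200 genes and at most 10% mitochondrial UMIs were kept here. Clusters were made in each experiment with scanpy 1.11.5 and leidenalg 0.10.2 (5000 variable genes without the Cd300 genes, 20 principal components, resolution 0.5) and named from marker lists. No doublet caller was run. Sums of counts per library went into the quasi-likelihood test of edgeR 4.0.16 (TMM scaling, Benjamini-Hochberg adjustment, threshold 0.05), with the experiment as a block between groups and the library as a block in the splits. DESeq2 1.42.0 was an alternative. The members and lists were chosen with earlier results of these data known.

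Genes named are the members, the other Cd300 genes, the direct partners, the 2 largest called changes each way in each list (mean of at least 1 CPM, same direction in both experiments), the 5 largest each way in each split (mean of at least 10 CPM, same direction in 4 libraries) and the 3 nearest in pattern. A single one of the genes this rule names is not reported here. The experiment label pairs the libraries, whose deviations correlated at 0.627 over 7094 genes. In simulated data every changed gene was above a set level and shifted by the same size. The spread was fixed, and no effect of experiment or library was added. With 200 changed genes in such data, the group test recovered 200 of 200 with 14 false calls among 13861 genes. The Cd300lf split recovered 191 with 14 false calls among 11637 genes. How far these counts hold for the real libraries and for the listed genes was not tested.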

Additional observations from a re-analysis of the deposited data

Results flagged for a closer look

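The difference between cells with and without Cd300lf depended on the group for 69 of 11674 genes (edgeR interaction term, adjusted p under 0.05; 1076 at an unadjusted p under 0.05). The following 4 genes were chosen after their values were seen. Prtn3 and Elane, proteases of early neutrophils, had differences of differences of -3.60 and -3.59 on the log2 scale (efferocytic minus non-efferocytic). Elane was at 118 CPM with and 13.8 CPM without Cd300lf in the non-efferocytic library of Experiment 1 and at 136 and 13.4 CPM in that of Experiment 2, against 4.83 and 4.96 CPM and 5.34 and 7.75 CPM in the efferocytic libraries. Fos and Dusp1, immediate early genes, had differences of 0.97 and 0.91. Fos was at 203 and 306 CPM and at 40.7 and 48.0 CPM with and without Cd300lf in the non-efferocytic libraries, and at 99.1 and 66.8 CPM and 18.8 and 16.0 CPM in the efferocytic libraries. With macrophage-like clusters alone, Fos and Dusp1 still passed, Prtn3 did not and Elane was too low to test.

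Barcodes under 100 UMIs, which are outside the cells compared, held Cd300lf at 20.7 CPM in the efferocytic library of Experiment 1, above the 6.90 CPM of the non-efferocytic library, and at 66.8 CPM in that of Experiment 2, above 47.3 CPM.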

How the results depend on the processing

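With no replicate block, that is without pairing by experiment or library, 2358 genes passed between the groups in place of 5397, 3 signaling partners and 8 inhibitory receptors, and 56, 26 and 400 genes passed in the Cd300lf, Cd300ld and Cd300a splits. DESeq2 called 3404 genes between the groups, 137 and 864 in the Cd300ld and Cd300a splits, and 30 for the dependence of the Cd300lf split on the group. A mean of at least 10 CPM left 3026 genes and 8 inhibitory receptors between the groups, and 166, 163 and 825 genes in the 3 splits. After removal of 10% free RNA, 2473 genes, 3 signaling partners and 9 inhibitory receptors passed. UMIs per cell gave 13 signaling partners and 22 genes of ceramide metabolism. Cells thinned to 10000 UMIs gave 1016 and 2824 genes in the Cd300ld and Cd300a splits, and macrophage-like clusters alone 168 and 633, and 10 for the dependence on the group. With each library left out in turn, 0 to 2933 genes passed between the groups, with 0 to 4 signaling partners, 0 to 8 phosphatidylserine receptors, 0 to 9 inhibitory receptors, 0 to 13 activating receptors and 0 to 7 genes of ceramide metabolism. The splits gave 152 to 267, 188 to 492 and 819 to 1673 genes, and the dependence on the group 60 to 140, with 140 without the non-efferocytic library of Experiment 1. The cause of these changes was not tested. TMM scaling of the member levels and the alternatives for the dependence on the group were chosen after seeing the data. Cd300lf was at least 2-fold higher in both experiments under every setting run. Cd300lf rests on 468 to 4379 UMIs per library.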
